A study of Mus musculus with 30 samples.

Results

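GABA and glutamate receptor subunits were the genes described, in the brain, kidney and liver of weanling mice. A probe set was included where the platform annotation gave it exactly 1 gene symbol and that symbol was Gabr followed by a letter, Gria, Grik, Grid or Grin followed by a digit, or Grm followed by a digit. This rule, which uses no measured value, found 77 probe sets of 38 genes, among 34945 probe sets and 18193 genes with 1 symbol. Each gene is given by its strongest probe set, the one with the highest mean signal over all 30 arrays. The 38 genes are 15 GABA-A subunits, 4 AMPA, 5 kainate, 6 NMDA and 1 delta subunit, 6 metabotropic glutamate receptors and Grid2ip. Grid2ip encodes delphilin, a protein that binds a delta-type glutamate receptor and is not itself a subunit, so 37 members are receptor subunits or receptors.

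The 30 Affymetrix Mouse Genome 430 2.0 arrays carry RNA of 3 tissues, brain, kidney and liver, from each of 10 male mice at day 22, when coat colour was scored. All mice were Avy/a, that is, they carried 1 viable yellow agouti allele (Avy) over the nonagouti allele (a), in a sib-mated colony in which Avy is held heterozygous and which goes back to C3H/HeJ. Per class there were 2 mice, which the labels number 1 and 2, and the 5 classes run from a yellow coat through a slightly mottled, a mottled and a heavily mottled one to the brown pseudoagouti coat. No mouse without Avy was analysed here, no brain region is named in the labels, and the labels do not say what the number stands for.

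GABA is the main inhibitory transmitter of the brain and glutamate the main excitatory one. GABA-A receptors are chloride channels of several subunits, most often alpha and beta with gamma or delta. AMPA, kainate and NMDA receptors are cation channels assembled from several subunits, while metabotropic glutamate receptors (mGlu) act through G proteins, group I through phospholipase C and groups II and III by inhibiting adenylyl cyclase. During the first postnatal weeks the rodent brain exchanges some subunits for others, such as Grin2a beside Grin2b in NMDA receptors, and several subunits mark particular regions: Gabra6 is known from cerebellar granule cells and Gabra5 from hippocampal pyramidal cells.

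RefSeq promoter sequences (GRCm38.p6) matched 28 of the 38 genes, with 36 start windows in all. The 250 bases before the annotated start are shown for the pair of genes on which the tissue comparison and the spread between mice turn most: Gria2, with the largest brain minus liver difference of all members, and Gabra6, whose brain signal rested on 1 mouse. The Gria2 window lies on the minus strand at chr3:80802836-80803085 and that of Gabra6 on the minus strand at chr11:42321073-42321322, both printed 5′ to 3′ in the direction of the gene.
Gria2: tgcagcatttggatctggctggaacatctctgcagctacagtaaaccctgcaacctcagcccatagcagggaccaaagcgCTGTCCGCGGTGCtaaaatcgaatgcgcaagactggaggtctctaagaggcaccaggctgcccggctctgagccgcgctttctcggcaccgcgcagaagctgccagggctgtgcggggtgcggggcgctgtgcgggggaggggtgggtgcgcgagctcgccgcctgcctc
Gabra6: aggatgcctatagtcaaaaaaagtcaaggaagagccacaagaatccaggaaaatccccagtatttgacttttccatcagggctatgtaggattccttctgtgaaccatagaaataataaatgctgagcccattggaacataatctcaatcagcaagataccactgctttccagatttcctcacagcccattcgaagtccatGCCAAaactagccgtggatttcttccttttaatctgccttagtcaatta
The capitals in Gria2 mark the core of the RE1 element, GCACC and GGACAG with any 2 bases between them, found on the opposite strand and beginning 170 bases before the start. RE1 is the element bound by REST, a repressor of neuronal genes in other cell types. On both strands this core was present in 25 of 32851 promoter windows of the same length, or 0.0761%, and in 1 of the members' 36 windows, that of Gria2. The capitals in Gabra6 mark the recognition motif TTGGC of nuclear factor I, again on the opposite strand and 49 bases before the start. Nuclear factor I proteins are known to act on Gabra6 in maturing granule cells, but 41.5% of all windows hold this short motif, as do 16 of the members' 36 windows (44.4%). A cyclic AMP response element, TGACGTCA, was in 0 of the members' 36 windows, against 1.55% of all windows. These matches describe letters in the windows and show no binding.

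Values are MAS5 signals as deposited, and differences are of log2(signal + 16), which understates the difference of genes with low signal. Each array had been scaled to a trimmed mean of 500, medians were 138.2 to 205.4 in brain, 114.2 to 152.6 in kidney and 105.2 to 144.6 in liver, and the deposited table has no detection calls. All 9 pan-neuronal markers were higher in brain than in kidney and liver, all 8 kidney markers higher in kidney than in brain, and all 7 liver markers higher in liver than in brain. The brain array of pseudoagouti mouse 1 stood apart: 11 of 12 cerebellar markers were highest in it, with a summed signal of 78634, against 8360 to 14162 in the 9 other brains. The summed cerebellar list was 13581 to 28587 in kidney and 4838 to 7130 in liver, so the list as a whole is not specific to cerebellum across tissues. Several results that rest on this array are given with and without it.

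Most members were brain transcripts at day 22. Brain signal was higher than kidney signal for 31 of 38 members and lower for 0, where 15.8% of all 45037 probe sets were higher and 12.6% lower (limma on mice as blocks, adjusted p under 0.05 and a log2 difference of at least 1). Brain signal was higher than liver signal for 30 of 38 members and lower for 0, against 20.9% and 12.8% of all probe sets. At an unadjusted p under 0.05, too, the numbers were 31 and 30, with every one of these higher in brain. The members' median log2 difference was 3.58 from kidney and 3.62 from liver, against 0.11 and 0.08 over all probe sets. The same 30 members were higher in brain than in both other tissues, as were 13.1% of all probe sets, and 29 of the 30 had brain above both other tissues in 10 of 10 mice. The exception was Grik4, with brain above liver in 9 of 10. In bulk tissue, fewer cells of a type and less RNA per cell cannot be told apart.

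**Figure D1:**
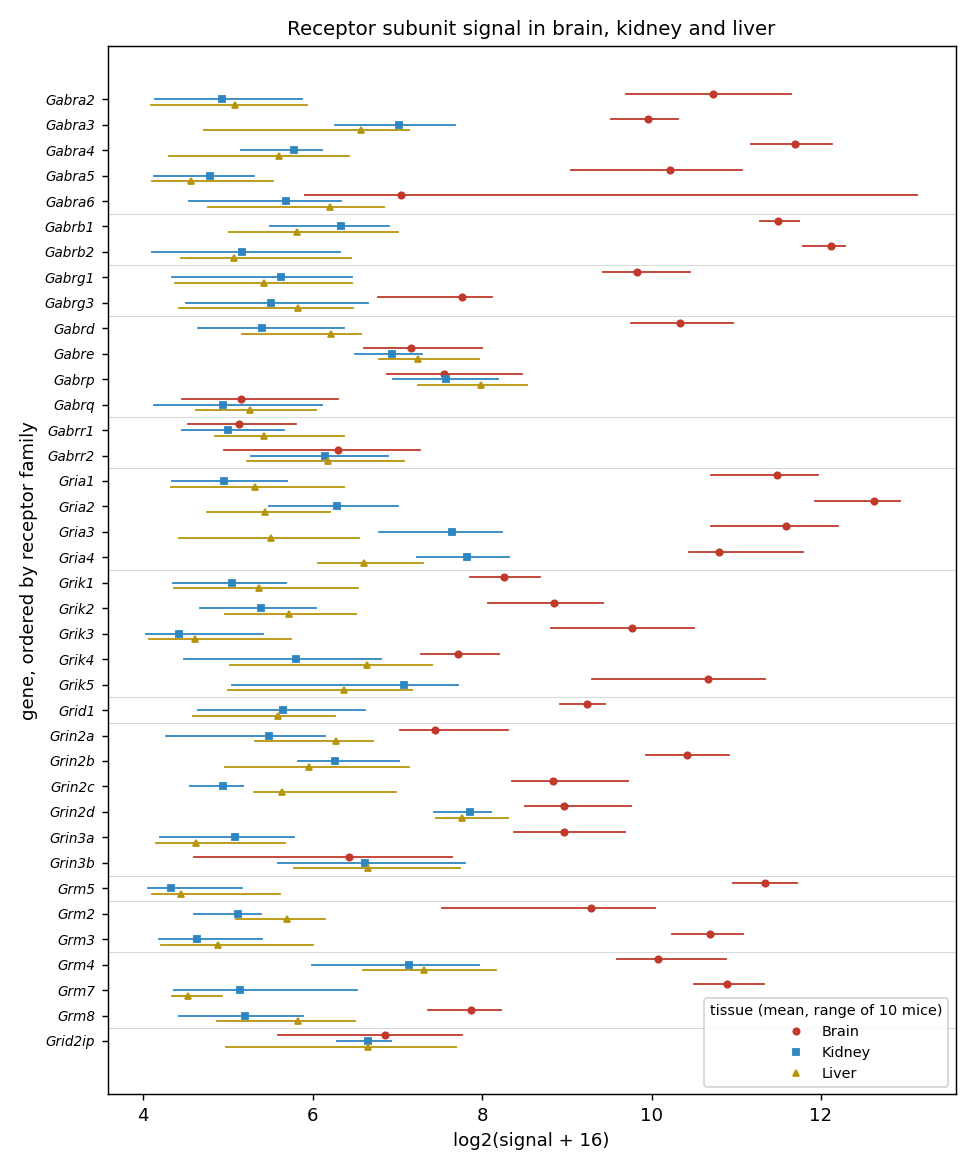
Mean log2(signal + 16) of the 38 genes in brain, kidney and liver, with the range over 10 mice, grouped by receptor class. The 30 genes called higher in brain than both tissues have brain means to the right of the kidney and liver means, while Gabre, Gabrp, Gabrq, Gabrr1, Gabrr2, Grin3b and Grid2ip have all 3 means close together.

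Among the GABA-A alpha subunits, which form the agonist site with beta and set benzodiazepine response, 5 of 5 were higher in brain than in kidney and 4 of 5 higher than in liver. Gabra2 had a lowest, median and highest signal of 814, 1717 and 3195 in brain, against 1.6, 15.6 and 42.8 in kidney and 1.0, 27.6 and 45.1 in liver. Gabra4, a partner of delta in thalamus and dentate gyrus, had 2288, 3382 and 4456 in brain, against 19.7, 42.2 and 53.1 in kidney and 3.7, 37.2 and 70 in liver. Gabra5, the alpha subunit of many extrasynaptic receptors in hippocampus, had 512.5, 1283 and 2127 in brain, against 1.4, 9.6 and 23.6 in kidney and 1.2, 4.9 and 30.2 in liver. For these 3 subunits the lowest brain lay far above the highest kidney or liver. Their log2 differences of brain from kidney were 5.79 ± 0.29, 5.91 ± 0.16 and 5.44 ± 0.23 (SE; limma adjusted p = 6.56e-16, 1.81e-21 and 1.42e-17). Gabra3, the alpha subunit of many monoaminergic neurons, had 718, 1007 and 1251 in brain, against 60.7, 104.7 and 188.2 in kidney and 10.2, 107.2 and 124.7 in liver. Its difference was 2.94 ± 0.21 from kidney and 3.39 ± 0.21 from liver.

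Both measured beta subunits and both measured gamma subunits were higher in brain than in both tissues. Gabrb2, the beta subunit of the commonest adult receptor, had 3528, 4592 and 4962 in brain, against 1.2, 25.4 and 64.3 in kidney and 5.8, 17.8 and 71.5 in liver, a difference of 6.95 ± 0.25 from kidney. Gabrb1 had 2479, 2825 and 3404 in brain, against 29.2, 74.2 and 103.3 in kidney and 16.2, 27.8 and 112.4 in liver. By these probe sets the brain signals of both beta subunits varied little between mice. Gabrg1, the gamma subunit of glia and of amygdala neurons, had a brain mean of 919 ± 241, against 36.9 ± 19.8 in kidney and 30.3 ± 19.8 in liver (SD, n = 10 each). Gabrg3 had 208 ± 47.1 in brain, 34.2 ± 23.6 in kidney and 44.8 ± 21.6 in liver. The differences from kidney were 4.21 ± 0.24 for Gabrg1 and 2.25 ± 0.25 for Gabrg3.

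Of the remaining GABA-A subunits, only Gabrd passed the test. Gabrd, the delta subunit of extrasynaptic receptors in granule cells and thalamus, had 846, 1212 and 1986 in brain, against 9.0, 26.4 and 66.4 in kidney and 20, 66.4 and 79.1 in liver, a difference of 4.93 ± 0.19 from kidney and 4.11 ± 0.19 from liver. Gabre, Gabrp, Gabrq and the rho subunits Gabrr1 and Gabrr2, which are known mainly from retina, did not pass in either brain comparison. Gabrp, known from reproductive and other epithelia, had means of 183 ± 74.6 in brain, 182 ± 57.3 in kidney and 250 ± 87.7 in liver. Its difference from liver was -0.43 ± 0.21 (adjusted p = 0.0826), with brain above liver in 2 of 10 mice. Gabrr1 had means of 20.4 ± 10.5 in brain, 16.9 ± 8.37 in kidney and 30.7 ± 21.2 in liver, and Gabrr2 had 71.4 ± 37.7 in brain, 58.6 ± 24.8 in kidney and 62.0 ± 29.1 in liver (SD, n = 10 each). Gabre had 133 ± 45.5 in brain, 108.5 ± 23.8 in kidney and 140 ± 41.7 in liver, and Gabrq had 23.0 ± 19.1 in brain, 18.4 ± 18.9 in kidney and 24.6 ± 14.4 in liver. The brain, kidney and liver ranges of each of these 5 genes overlapped.

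Gabra6 was called higher in brain than in kidney, at 1.36 ± 0.57 (adjusted p = 0.0458), but not than in liver, at 0.85 ± 0.57 (adjusted p = 0.209). Its lowest, median and highest signals were 44.1, 65.8 and 8967 in brain, against 7.3, 43.2 and 64.5 in kidney and 11.2, 65.3 and 98.9 in liver. The highest value is the brain of pseudoagouti mouse 1. Without that mouse the difference from kidney was 0.69 (adjusted p = 0.0245), below the minimum log2 difference of 1, and the difference from liver was 0.01 (adjusted p = 0.974).

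All 4 AMPA subunits, which carry fast excitatory transmission, were higher in brain than in both tissues. Gria2, whose edited form keeps calcium out of the channel, had 3870, 6906 and 7783 in brain, against 28.7, 66.1 and 112.8 in kidney and 10.9, 27.4 and 58.0 in liver, a difference of 6.34 ± 0.20 from kidney and 7.19 ± 0.20 from liver (adjusted p = 2.23e-20 and 8.6e-22). Gria1, the subunit added to synapses in long-term potentiation, had 1655, 2986 and 3972 in brain, against 4.3, 13.0 and 35.8 in kidney and 4.1, 25.6 and 67.0 in liver. In both genes the lowest brain was above the highest of the other tissues by more than an order of magnitude. Gria3 and Gria4 also exceeded liver in kidney. Gria3 had 1653, 3097 and 4681 in brain, 94.1, 194.2 and 284.9 in kidney and 5.4, 32.8 and 77.2 in liver. Gria4, the subunit of cerebellar and fast-spiking neurons, had 1379, 1620 and 3516 in brain, 134.4, 207.5 and 302.9 in kidney and 50.9, 80.2 and 142.1 in liver. The lowest kidney was above the highest liver for Gria3, and for Gria4 the ranges overlapped slightly.

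**Figure D2:**
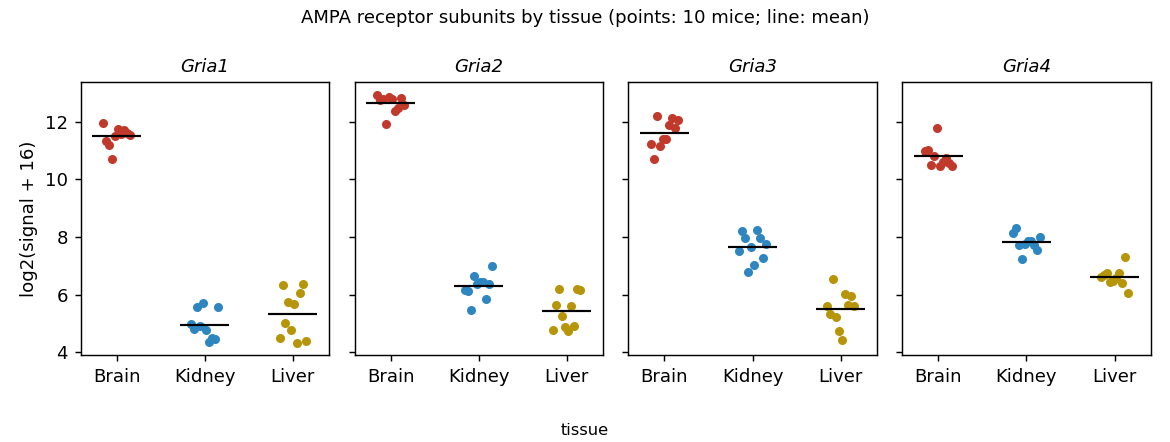
log2(signal + 16) of the 4 AMPA subunits in brain, kidney and liver, with each of 10 mice as a point and the mean as a line. All 4 are highest in brain, and for Gria3 and Gria4 the kidney points lie above liver in 10 of 10 mice.

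Kidney minus liver called 2 of 38 members higher, where 12.1% of all probe sets were higher and 7.51% lower, and 0 members lower. These were Gria3, at 2.13 ± 0.17 (limma adjusted p = 2.87e-11), and Gria4, at 1.22 ± 0.15 (adjusted p = 1.67e-07), both with kidney above liver in 10 of 10 mice. The other Gria3 probe set gave 1.34. The other Gria4 probe sets gave 0.78 and -0.36, so the direction of Gria4 was not shared by its probe sets. At an unadjusted p under 0.05, 14 members differed between kidney and liver, and with no minimum fold 6 were higher in kidney and 6 lower. The largest negative differences were Grik4, -0.84 ± 0.31, and Gabrd, -0.82 ± 0.19, both short of the minimum. These counts are by strongest probe set. The other Gabrd probe set gave 1.10 (limma adjusted p = 0.000107), which meets the rule in the opposite direction. Of the other Gabrg3 probe sets, 1 gave -1.72 (limma adjusted p = 7.48e-06), which meets the rule as lower. The rest gave -0.84 and -0.26, short of the minimum. No member was called higher in kidney or liver than in brain. The mean liver signal of Gabre, Gabrp, Gabrq, Gabrr1 and Grin3b was above the brain mean without passing the test, and the second Gabrp probe set gave -0.64 from liver (limma adjusted p = 0.0157), short of the minimum. Of 38 members, 8 had a mean signal of at least 100 in kidney and 4 in liver, a level that is no detection call. It lies below the median of every kidney array (114.2 to 152.6) and every liver array (105.2 to 144.6). The share of all probe sets above it was not counted. The 8 in kidney are Gabra3, Gabre, Gabrp, Gria3, Gria4, Grik5, Grin2d and Grm4, and the 4 in liver are Gabre, Gabrp, Grin2d and Grm4.

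All 5 kainate subunits were higher in brain than in both tissues. Grik3, one of the low-affinity subunits, had 434, 937 and 1436 in brain, against 0.4, 4.4 and 26.7 in kidney and 0.7, 6.6 and 37.8 in liver, a difference of 5.36 ± 0.26 from kidney. Grik5, a high-affinity subunit that needs a low-affinity partner, had 612, 1688 and 2574 in brain, against 17.1, 148.2 and 193.3 in kidney and 16, 71.7 and 128.4 in liver. Grik4, the other high-affinity subunit, known from hippocampal CA3, had the smallest brain minus liver difference among the 30, 1.08 ± 0.31 (adjusted p = 0.00333). Its signals were 139.8, 185.5 and 278.2 in brain, against 6.4, 54.8 and 96.0 in kidney and 16.4, 111.7 and 154.2 in liver, with brain and liver overlapping. Its difference from liver was short of the minimum under quantile normalisation, at 0.79, with an offset of 64, at 0.77, and without mottled mouse 1, mottled mouse 2 or pseudoagouti mouse 2, at 0.93 to 0.98. Grik1 averaged 295 ± 62.5 in brain, 18.5 ± 9.90 in kidney and 30.2 ± 23.2 in liver, and Grik2 464 ± 141 in brain, 27.8 ± 13.5 in kidney and 39.5 ± 18.4 in liver (SD, n = 10 each). The delta subunit Grid1 averaged 589 ± 67.8 in brain, 39.4 ± 24.3 in kidney and 35.8 ± 19.6 in liver.

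Of 6 NMDA subunits, 5 were higher in brain than in both tissues. Grin2b, the subunit that predominates early in development, had 962, 1348 and 1915 in brain, against 40.7, 60.7 and 113.2 in kidney and 15.3, 38.6 and 124.6 in liver, a difference of 4.16 ± 0.21 from kidney. Grin2a, which increases after birth, had 115.0, 131.9 and 300.2 in brain, against 3.3, 37.5 and 54.7 in kidney and 23.8, 66.4 and 88.5 in liver, a difference of 1.96 ± 0.22 from kidney and 1.16 ± 0.22 from liver. These are different probes, so their signals do not give the ratio of the transcripts. Grin2c, known from mature cerebellum, had 310.8, 439.1 and 830.5 in brain, against 7.5, 15.6 and 20.2 in kidney and 23.7, 27.4 and 110.9 in liver. Grin2d, a subunit of interneurons and brain stem, had 348.6, 461.7 and 846.8 in brain, against 157.3, 230.1 and 259.8 in kidney and 158.9, 196.9 and 299.6 in liver. The lowest brain exceeded every kidney and liver for both, but the difference was small for Grin2d, 1.11 ± 0.13 from kidney. Under quantile normalisation Grin2d came to 0.95 and fell short of the minimum. Grin3a, a glycine-binding subunit of juvenile synapses, averaged 498 ± 138 in brain, 20.1 ± 12.5 in kidney and 10.9 ± 12.9 in liver. Grin3b, known from motor neurons, did not pass: its means were 86.6 ± 60.0 in brain, 91.4 ± 50.3 in kidney and 95.3 ± 53.2 in liver. Grid2ip did not pass either, with 108.5 ± 46.6 in brain, 85.7 ± 13.9 in kidney and 97.0 ± 49.7 in liver.

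All 6 metabotropic receptors were higher in brain than in both tissues. Grm5, the group I receptor, had 1985, 2666 and 3340 in brain, against 0.6, 3.1 and 20 in kidney and 1.2, 5.1 and 32.8 in liver. Its difference of 7.01 ± 0.19 from kidney was the largest of all members in that comparison. In group II, Grm3, which is found in glia as well as neurons, had 1198, 1735 and 2154 in brain, against 2.2, 7.4 and 26.1 in kidney and 2.5, 7.8 and 48.3 in liver, and Grm2, a presynaptic receptor of cortical and thalamic inputs, had 168.4, 670.1 and 1035 in brain, against 8.2, 21.4 and 25.9 in kidney and 18.1, 37.8 and 54.8 in liver. Brain and the other tissues did not overlap for either. In group III, which acts mainly as presynaptic autoreceptors, Grm7 averaged 1899 ± 314 in brain, 24.8 ± 25.3 in kidney and 7.13 ± 2.93 in liver. Grm4, strong in cerebellar granule cells, averaged 1114 ± 404 in brain, 135 ± 57.5 in kidney and 150 ± 56.0 in liver. Grm8 averaged 223 ± 48.5 in brain, 22.4 ± 11.8 in kidney and 45.6 ± 24.3 in liver.

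The probe set chosen matters for some genes. Of 23 members with several probe sets, 13 had all of them higher in brain than in both tissues, and over these 23 genes 49 of 62 probe sets were. For Grik3 the other probe set had a brain mean of 14.5 ± 4.08, with differences of 0.32 from kidney and 0.27 from liver. For Gabrd the other probe set had 74.7 ± 30.9 in brain, 63.1 ± 26.0 in kidney and 21.7 ± 15.7 in liver, with 0.18 ± 0.22 from kidney (limma adjusted p = 0.497). Grm7 had 1 of 3 probe sets passing, Grin2d 1 of 2, Gabra2 4 of 5, and Gabrb1, Gabrg3 and Grin2b 3 of 4 each. The 2 probe sets of Gabra6 did not pass both comparisons.

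The spread between brains differed among the members. Among the 26 members with a brain mean of at least 8 on the log2 scale, the median SD over 10 brains was 0.35, against 0.28 over 18106 probe sets at that level, and 5 of 26 (19.2%) had an SD above 0.5, against 8.5%. These figures describe the arrays and were not tested. The largest SDs were Grm2, 0.71, Gabra5, 0.69, Grik3, 0.65, Gabra2, 0.61, Grik5, 0.60 and Gria3, 0.49. The smallest were Gabrb1 and Grid1, each 0.16, and Gabrb2, 0.17. By strongest probe set, Gabra2 and Gabra5 are thus among the most variable members in brain and both beta subunits among the least. This depends on the probe set. The other Gabra2 probe sets had SDs of 0.31, 0.34, 0.60 and 0.78, the last 2 with brain means of 10.5 and 108.9. The other Gabrb2 probe sets had 0.16, 0.18, 0.22 and 0.57. Those of Gabrb1 had 0.09, 0.28 and 0.86, the last with a brain mean of 56.5.

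**Figure D3:**
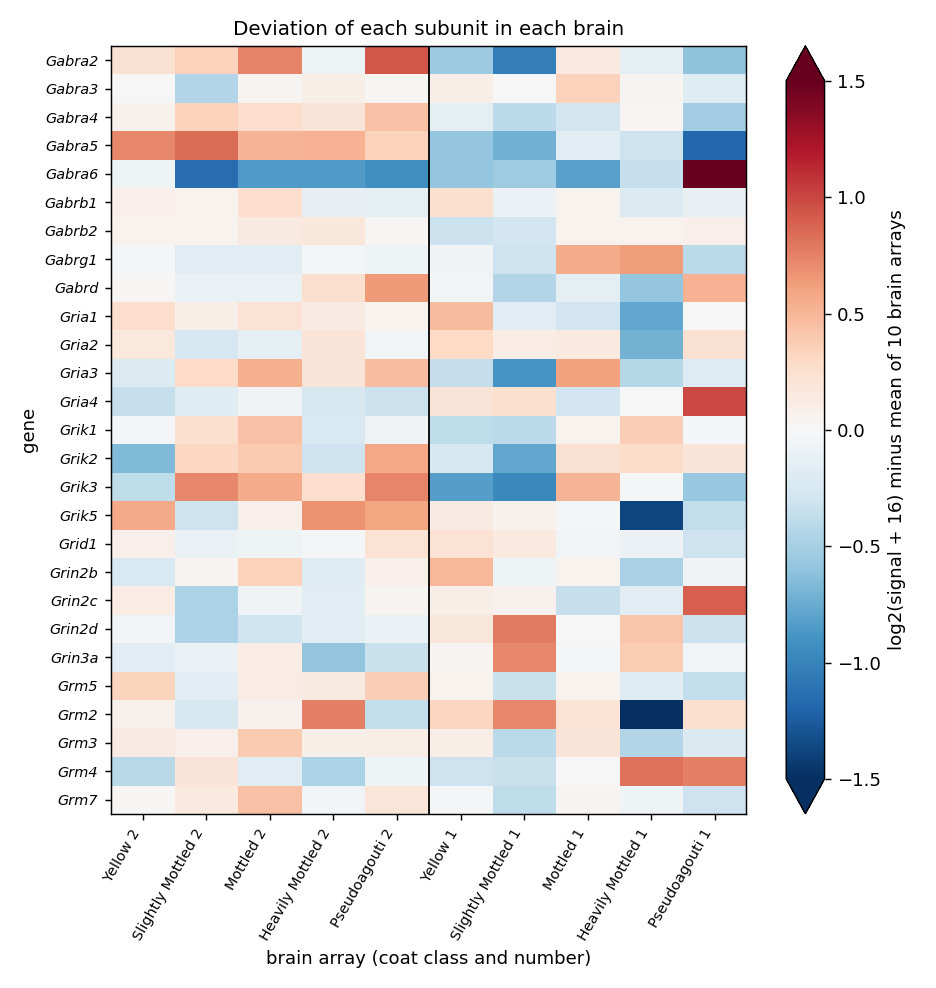
Deviation of each of the 10 brain arrays from the gene's mean over brain, in log2(signal + 16). Shown are Gabra6 and the 26 members with a brain mean of at least 8 on the log2 scale. Gabra6 stands out in pseudoagouti 1, Grm2 and Grik5 are low in heavily mottled 1, and Gabra5 is higher in number 2 mice than in number 1 mice.

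The brain of pseudoagouti mouse 1 had the most extreme value. Gabra6 gave 8967 there, against 44.1 to 110.9 in the 9 other brains, and its other probe set gave 3398, with a median over all brains of 19.6. Gria4 was 3516 there, against 1379 to 2072 in the others, and Grin2c 830.5, against 310.8 to 475.5. Each of these 3 subunits is known from cerebellar neurons or glia. Cerebellar markers moved with them: Pcp2, a Purkinje cell gene, was 12110, against 18.1 to 154.0, Cbln3, a granule cell gene, 6259, against 6.6 to 70.3, and Neurod1, 7757, against 477.0 to 970.7. Cbln1, a ligand that bridges neurexins and delta receptors, was 5797, against 354.8 to 1791. Gabrd and Grm4, also known from granule cells, were second highest in this brain: Gabrd was 1836, against 846 to 1986 in the others, and Grm4 1798, against 756 to 1871. This brain was the highest for 4 of 38 members and the lowest for 7, and the share of all probe sets was not counted. The part of cerebellar tissue in these values was not tested. Without pseudoagouti mouse 1 the SD of Gabra6 over brains was 0.33, against 2.16 with it. That of Gria4 was 0.22, against 0.41, and that of Grin2c 0.21, against 0.37. The members higher in brain than both tissues numbered 30 without this mouse, as with it.

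**Figure D4:**
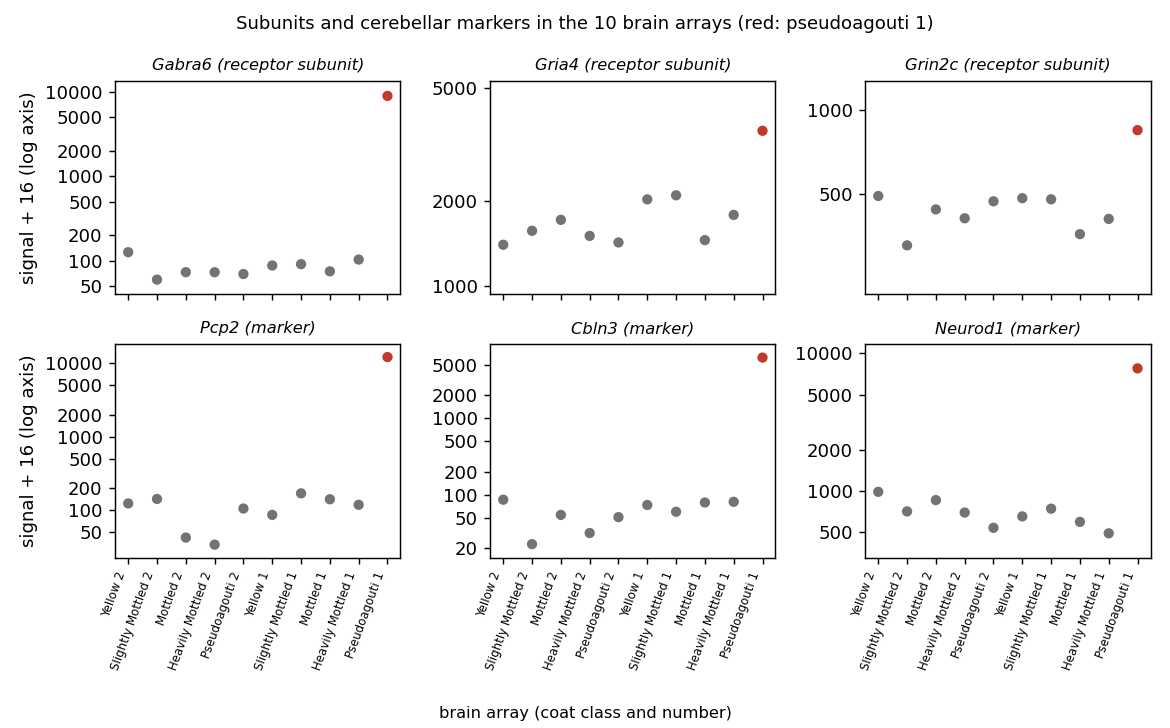
Signal + 16 on a log axis in each of the 10 brain arrays, for the subunits Gabra6, Gria4 and Grin2c and the cerebellar markers Pcp2, Cbln3 and Neurod1. Pseudoagouti 1, in red, is the highest array in all 6 panels.

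The brain of heavily mottled mouse 1 was low for another group of subunits. Grik5 was 612 there, against 1248 to 2574 in the 9 other brains, and Grm2 168.4, against 464.9 to 1035. It was the lowest brain for 8 of 38 members, the others being Gria1, Gria2, Grin2b, Gabrb1, Gabrd and Grm3. It was the highest brain for 5, Gabrg1, at 1387, Grm4, at 1871, Gabre, Gabrr2 and Grid2ip. The share of all probe sets at an extreme in this brain was not counted. Whether these counts are particular to the subunits is therefore not known. All 6 forebrain pyramidal markers were lowest in it, with a summed signal of 6671, against at least 12941 in the others, and 11 of 15 excitatory scaffold genes were lowest in it. The summed pan-neuronal list was 66028, against at least 66277 in the others. The part of these markers in the low values was not tested.

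Number 2 brains were compared with number 1 brains because the number splits the coat classes evenly. Of 38 members 1 was called, Gabra5, where 0.477% of all probe sets were called, 0.264% higher and 0.213% lower. Gabra5 had 1507, 1682, 1698, 1958 and 2127 in number 2 brains, against 512.5, 708, 785, 950 and 1059 in number 1 brains. The groups did not overlap. The difference was 1.18 ± 0.17 (limma adjusted p = 0.0343). The call was lost in 8 of 10 fits that left out 1 mouse, with adjusted p up to 0.103 and differences of 1.03 to 1.29, and it held without heavily mottled mouse 1 (adjusted p = 0.0317) and without mottled mouse 1 (adjusted p = 0.0035). With coat class as a block the adjusted p was 0.0981.

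The next members did not pass. Gabra4 averaged 3952 ± 390 in number 2 brains, against 2764 ± 410 in number 1 brains (SD, n = 5 each), with no overlap, and differed by 0.52 ± 0.12 (limma adjusted p = 0.0726). The other Gabra4 probe set, with a brain mean of 1675, differed by 0.27 ± 0.18, and there the groups overlapped. Gabra2 averaged 2335 ± 655, against 1281 ± 403, and differed by 0.87 ± 0.22 (limma adjusted p = 0.0888). Its other 4 probe sets did not all give the same sign. Grik3 averaged 1162 ± 328, against 713 ± 331, and differed by 0.75 ± 0.28 (limma adjusted p = 0.186). At an unadjusted p under 0.05 there were 14 of 38 members, 9 higher and 5 lower in number 2 brains, and 8159 of 45037 probe sets. The 5 lower were Grin3a, at -0.43 ± 0.18, Gria4, at -0.45 ± 0.19, Grik4, at -0.47 ± 0.20, Grin2d, at -0.42 ± 0.19, and Gabrq, at -0.70 ± 0.32, with limma adjusted p of 0.223 to 0.262. The other Grin3a probe sets gave -0.73 and -0.49. Those of Gria4 gave -0.51 and 0.24, so its direction was not shared by its probe sets. Without pseudoagouti mouse 1 the strongest Gria4 probe set gave -0.26. For Grik3 the other probe set, with a brain mean of 14.5, gave -0.16. The other Grin2d probe set was not lower in number 2 brains. It had 86.2 to 153.8 there, against 61.3 to 146.9 in number 1 brains. Forebrain pyramidal markers were listed at 12941 to 20463 summed in number 2 brains and 6671 to 18999 in number 1 brains. Of these 6 markers 5 had a positive difference, with a median of 0.62 over the list. Neurod6 averaged 2528 ± 609 in number 2 brains, against 1070 ± 633 in number 1 brains, and Tbr1 1172 ± 267, against 639 ± 500. Camk2a went the other way, with 4189 ± 880, against 5272 ± 2904. All 12 cerebellar markers had a negative difference, with a median of -1.20, or -0.51 and 8 of 12 without pseudoagouti mouse 1. Of 5 oligodendrocyte markers 3 were negative, with a median of -0.50. No marker of these 3 lists was called, and their part in the Gabra5 difference was not tested.

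**Figure D5:**
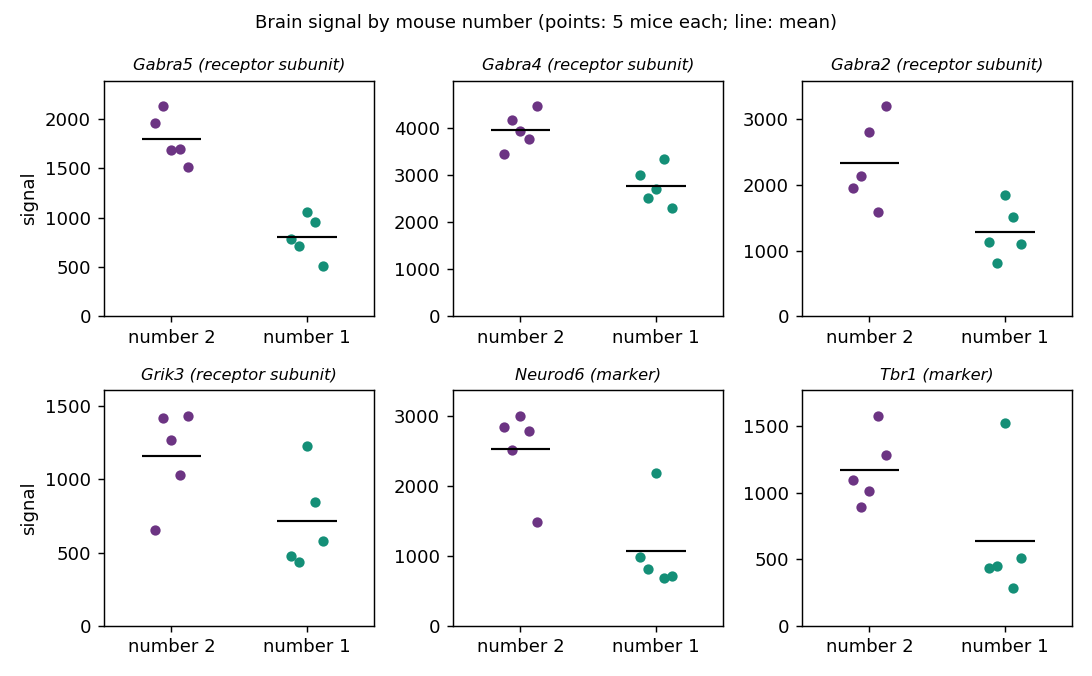
Brain signal of Gabra5, Gabra4, Gabra2, Grik3 and the forebrain markers Neurod6 and Tbr1 in number 2 mice (left) and number 1 mice (right), 5 mice each, with the mean as a line. By strongest probe set, Gabra5 and Gabra4 do not overlap between numbers, while Gabra2, Grik3, Neurod6 and Tbr1 do.

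Coat class did not give a called slope. With coat scored from 0 (yellow) to 4 (pseudoagouti), 0 of 38 members had an adjusted p under 0.05 in brain, kidney or liver by limma, where 0%, 0.00222% and 0% of all probe sets did. At an unadjusted p under 0.05 there was 1 member in each tissue, against 1038, 1284 and 1284 of 45037 probe sets. These were Grik2 in brain, at 0.19 ± 0.08 per step, Gabra3 in kidney, at -0.26 ± 0.08, and Gabrp in liver, at 0.25 ± 0.08. In the same tissues their other probe sets gave -0.03, 0.01 and 0.06, so these slopes depend on the probe set. No member had a slope that differed between tissues at an adjusted p under 0.05, as was so for all probe sets, and at an unadjusted p under 0.05 there was 1 member, Gabra3, against 1333 probe sets. For a mouse effect shared by the 3 tissues, limma's moderated F-test called 0 of 38 members, against 2.09% of all probe sets, with 5 members and 7466 probe sets at an unadjusted p under 0.05. The smallest adjusted p was that of Gria3, 0.0931.

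Genes of receptor partners were counted in the same tissue comparisons. The GABA-B receptor gene Gabbr1 averaged 8866 ± 2021 in brain, against 369 ± 98.7 in kidney and 184 ± 52.3 in liver. Of 16 AMPA receptor auxiliary and trafficking genes 13 were higher in brain than in both tissues, among them Gsg1l, at 4.94 ± 0.16 from kidney, Shisa9, at 5.05 ± 0.18, and Cnih2, at 5.23 ± 0.25. Both kainate auxiliary genes passed, with Neto2 at 5.19 ± 0.24 from kidney. Of 15 excitatory scaffold genes 11 were higher than in both tissues. Homer2 differed by 3.05 ± 0.18 from kidney but by -0.30 ± 0.18 from liver, and Shank3 was higher in kidney than in liver, at 2.16 ± 0.11. Of 7 inhibitory scaffold genes only Nlgn2, Lhfpl4 and Slitrk3 were higher than in both. Gphn, which anchors GABA-A and glycine receptors and also makes molybdenum cofactor in other tissues, averaged 2791 ± 388 in brain, against 2099 ± 267 in kidney and 2998 ± 697 in liver. These lists, like the members, were chosen with results of these data known.

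Several subunit genes lie next to each other in the RefSeq annotation: Gabrg1 beside Gabra2 and Gabra4 beside Gabrb1 on chromosome 5, Gabra6 beside Gabrb2 on chromosome 11, Gabrg3 beside Gabra5 on chromosome 7, Gabrr2 beside Gabrr1 on chromosome 4 and Gabra3 beside Gabrq on chromosome X. Of these 6 pairs, 3 had both genes higher in brain than in both other tissues, 2 had 1 such gene and 1 had none. The 2 mixed pairs were Gabra6 with Gabrb2 and Gabra3 with Gabrq. Gabra6 exceeded 111 in 1 brain, while its neighbour Gabrb2 was between 3528 and 4962 in all 10.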

How the data were processed

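The authors deposited linear signal intensity per probe set, computed with MAS5 (version not given) per the submitters' processing notes. No genome build or detection call is given in the sources used here. Of 45101 probe sets 64 controls were left out. Each array's trimmed mean (2% at each end) is 500. Values were used as log2(signal + 16), with no filter on low signal, so that all 38 members were tested; 27 would pass a filter at the median of the highest tissue mean. Precision is limited by the number of arrays, 10 per tissue.

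limma 3.58.1 in R 4.3.3 (eBayes with trend) was fitted over 45037 probe sets with Benjamini-Hochberg adjustment, after tests on simulated data. Those recovered 98.5% of brain minus kidney differences of 2 log2 and 89% of mouse effects with an SD of 1 log2. They recovered 67% of brain coat slopes of 0.5 log2 per step. Of number 2 minus number 1 differences of 1 log2 in brain they recovered 24%, so most simulated differences of that size were missed. The simulated spread was pooled over the 3 tissues. The 67% and 24% therefore do not give the recovery at the spread of brain alone. Tissues were compared with mouse as a fixed block, since the series text draws the 3 tissues from the same 10 mice; deviations of the same mouse correlated at -0.09 to 0.40 between tissues. The members and lists were chosen with earlier results of these data known. Genes given by mouse were those with the largest brain differences, largest brain SD, calls or smallest p within brain, and named subunits. The alternatives were other offsets, a filter, quantile normalisation, other probe sets, no trend, other blocks, other thresholds and leaving out each mouse. Nothing says that mice came from separate litters. Members without a RefSeq promoter were not searched. All mice are labelled male, and the 3 Xist probe sets averaged 8.38, 11.0 and 190.4, the last up to 375.1 on 1 array. The label number was also tried as a block for coat slopes, because liver deviations of same-numbered mice correlated above 0.1 in 10 of 10 class pairs.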

Additional observations from a re-analysis of the deposited data

Results flagged for a closer look

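In each tissue every member was checked for a mouse far from the other 9, which gave 17 values in 114 checks. About 5% of such checks pass by chance, and no cause of any value was tested.

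In brain, pseudoagouti mouse 1 was far above the other brains for Gabra6, at 8966.6, Gria4, at 3516.3, and Grin2c, at 830.5. Heavily mottled mouse 1 was far below the others for Grik5, at 612, and Grm2, at 168.4. Slightly mottled mouse 1 was far below for Gabrg3, at 92.8, against 169.5 to 262.5 in the others. The cerebellar and forebrain markers that moved with the first 5 values are given beside them in the results.

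In kidney, slightly mottled mouse 1 was far above the others for Grik3, at 26.7, and Grm5, at 20, while heavily mottled mouse 1 was far below for Grik5, at 17.1, against 64.7 to 193.3.

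In liver, slightly mottled mouse 2 was low for Gabra3, at 10.2, and Grin2a, at 23.8, and high for Gabrb2, at 71.5. Yellow mouse 2 was low for Gabrd, at 20, and pseudoagouti mouse 2 low for Gabrg3, at 5.5. Yellow mouse 1 was high for Grin2c, at 110.9, and Grm5, at 32.8, and heavily mottled mouse 2 high for Grm7, at 14.5. Most of these kidney and liver signals lie below the array medians.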

How the results depend on the processing

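Of 1331 values of 64 called gene results under alternatives, 1292 kept direction and call, 39 lost the call and 0 reversed. Brain minus kidney called 30 to 31 members with each mouse left out and brain minus liver 29 to 30. With no replicate block the calls were 31 and 30, as with a random replicate block, and 2 in kidney minus liver. Quantile normalisation gave 29 and 27 and moved the median difference of all probe sets by -0.18 from kidney and -0.22 from liver; the share of calls that were higher in brain than in liver was 50.6% under it and 62% as deposited. No member reversed. Kidney minus liver called 2 members higher: 5 with an offset of 1, 1 with an offset of 64, 6 with no minimum fold, 1 with a log2 minimum of 2, and 2 to 3 with each mouse left out. It called 0 lower: 4 with an offset of 1, 6 with no minimum fold, and 0 to 1 with each mouse left out, the 1 without pseudoagouti mouse 2. In brain number 2 minus number 1, the 1 call became 2 with the signal filter, 0 with no trend, 0 with coat class as a block, and 0 to 4 with each mouse left out. It was 0 without yellow 1 or 2, slightly mottled 1 or 2, mottled 2, heavily mottled 2, or pseudoagouti 1 or 2, 2 without heavily mottled 1 and 4 without mottled 1. The mouse effect called 0 members, 1 without liver and 0 to 1 with each mouse left out, the 1 without slightly mottled mouse 1. The number 2 minus number 1 difference was taken within each coat class and correlated between classes over probe sets. The correlation was above 0.1 in 6 of 10 class pairs in brain, 9 of 10 in kidney and 10 of 10 in liver. Medians were 0.18, 0.30 and 0.24, so the number marks shared differences in liver and less evenly in the other tissues. As a replicate block it left 0 coat slopes called in each tissue. Kidney and liver signals near the offset limit what differences there can show.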
